A study of Bos taurus with 25 samples.

Results

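The methionine cycle and transsulfuration enzymes were examined in biopsies of liver and mammary gland from lactating Holstein cows. The list held 10 genes, and probes were chosen by the array's name for each spot, joined to a current gene symbol. In all, 16 probes stood for 9 of the 10 genes, out of 11068 genes with a current symbol on the array. GNMT, the glycine methyltransferase, had no probe paired by name and is not analysed here. The probes comprised 3 for AHCY, 2 each for MTR, MAT1A, MAT2A, MAT2B and CTH, and 1 each for MTRR, BHMT and CBS. Where a gene had several probes, the probe with the highest mean signal over both tissues was the one followed, and the other probes are given beside it.

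The methionine cycle turns methionine into S-adenosylmethionine (SAM), the methyl donor of most methylation reactions, and takes the homocysteine that is left either back to methionine or on to cysteine. Homocysteine is remethylated with a methyl group from folate, in a reaction that needs vitamin B12, or with one from betaine. The liver is known as the main site of the betaine route and of its own form of SAM synthetase, while most other tissues depend on the folate route and on the widespread form of the synthetase.

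All cows were multiparous and in milk, and were sampled 64 ± 3 days after calving, following weekly intramuscular injections of 5 mL. Control cows (Ctl) received saline, B9 cows 320 mg of folic acid (pteroylmonoglutamic acid), B12 cows 10 mg of cyanocobalamin, and B9_B12 cows both vitamins. The data came from 25 arrays, 12 of liver (3 Ctl, 3 B9, 4 B12 and 2 B9_B12) and 13 of mammary gland (3 Ctl, 3 B9, 4 B12 and 3 B9_B12). They came from 13 cows, of which 12 gave both tissues. Cows were the replicates, and the ages of the cows were not given in the sources used here.

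Tissue identity was checked first. All 10 hepatocyte markers were called higher in liver and all 9 mammary epithelial markers with a probe were called lower in liver. The liver arrays of cow 57 (B9) and cow 32 (B9_B12) correlated less with the other liver arrays (medians of 0.972 and 0.973) than the remaining liver arrays did (0.989 to 0.992). The signal over background was 5.33 to 10.5 on the liver arrays scanned on the first day and 2.30 to 3.58 on the 3 liver arrays scanned on the second day (cows 43, 37 and 32, all on 1 slide). It was 2.92 to 5.06 on the mammary arrays. In the mammary gland, the mean of the hepatocyte markers was highest in cow 57 (9.57 on the log2 scale) and next in cow 31 (8.81), against 7.88 to 8.27 in the other 11 cows. In the liver, the mean of the mammary epithelial markers was highest in cows 36 (9.61) and 37 (9.39), both B12, and next in cow 57 (8.91, B9), against 7.57 to 8.43 in the other 9 cows and 7.80 to 7.90 in the Ctl cows.

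Signal was expressed on a log2 scale after background correction and normalization, so that 1 unit is a 2-fold change, and probes cannot be ranked against each other. For the comparison of the tissues all 25 arrays were normalized together. To be called, a gene needed 1 probe or more that differed by 2-fold or more and passed limma's adjusted threshold of 0.05. Of the 9 genes, 5 were called higher in liver (BHMT, MAT1A, AHCY, CTH and CBS) and 1 was called lower in liver (MAT2B). Over all 43653 probes, 8.8% were called higher and 9.89% lower in liver. In a biopsy, a difference in the number of cells of a type cannot be told apart from a difference in RNA per cell.

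**Figure D1:**
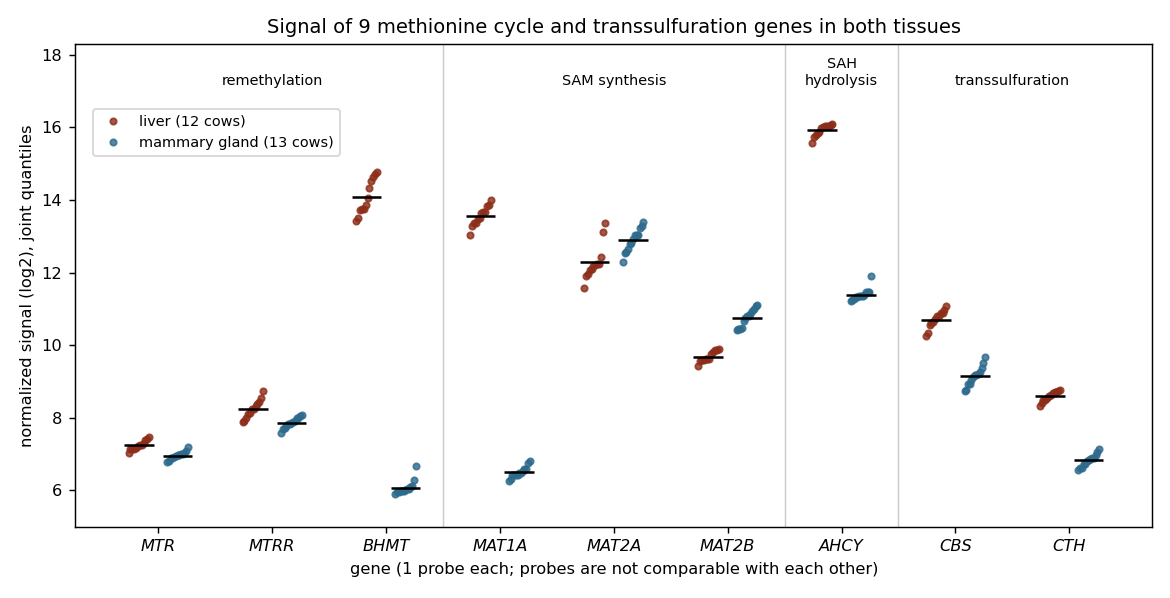
Normalized signal (log2, all arrays normalized together) of 1 probe for each of the 9 genes, in 12 livers (red) and 13 mammary glands (blue). Each point is a cow and each bar is a tissue mean. The points of both tissues are apart for BHMT, MAT1A, MAT2B, AHCY, CBS and CTH and overlap for MTR, MTRR and MAT2A.

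Among the remethylation enzymes, BHMT differed most between the tissues. BHMT, the betaine-homocysteine methyltransferase, ranged from 13.42 to 14.78 over 12 livers, with a median of 13.96. Over 13 mammary glands the lowest was 5.89, the median 6.01 and the highest 6.67. The difference was 7.96 ± 0.13 (SE), with an adjusted p of 3.7e-21 by limma, and liver was higher in 12 of 12 cows. In the mammary gland this probe was well above background on 3 of 13 arrays, those of cows 41, 57 and 31, so the mammary level is mostly not measured. The difference was 9.02 with no background correction, 10.17 with normexp at an offset of 0, and 11.93 with the scanner's processed signal scaled to the 75th percentile. The lowest liver signal was far above the highest mammary signal, and no fold is given.

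The folate route showed much smaller differences. MTR, the methionine synthase that uses vitamin B12, ranged from 7.03 to 7.47 in liver and from 6.78 to 7.20 in the mammary gland. Its difference of 0.30 ± 0.05 (adjusted p = 3.4e-05 by limma, higher in liver in 11 of 12 cows) was under 2-fold, and it turned to -0.25 when arrays were scaled to the 75th percentile instead of by quantiles, a scaling under which the median over all probes moved from -0.03 to -0.80. The other MTR probe gave 0.49 ± 0.08. MTRR, the reductase that returns MTR to its active form, ranged from 7.90 to 8.75 in liver and from 7.58 to 8.09 in the mammary gland. It was higher in liver by 0.41 ± 0.09 (adjusted p = 0.00044 by limma) in 12 of 12 cows, also below 2-fold, and by 0.20 (adjusted p = 0.068) under the 75th percentile. Neither gene was called, and the values of both tissues overlapped.

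The genes of SAM synthesis differed from one another. MAT1A, which encodes the hepatic catalytic subunit, lay between 13.03 and 13.99 in liver and between 6.26 and 6.81 in the mammary gland. The difference was 7.07 ± 0.08, or 134-fold (95% interval 120 to 150, adjusted p = 1.0e-23 by limma), and its other probe gave 6.70 ± 0.09. The MAT1A probe followed was well above background on 12 of 13 mammary arrays and the other probe on 8 of 13. With the scanner's processed signal the difference of the probe followed was 8.997, so the interval of the fold holds for the main processing only. MAT2A, the catalytic subunit of the widespread form, ranged from 11.57 to 13.36 in liver and from 12.29 to 13.39 in the mammary gland. It was lower in liver by -0.57 ± 0.18 (adjusted p = 0.0091 by limma) and in 11 of 12 cows, but the other MAT2A probe gave 0.03 ± 0.15 (adjusted p = 0.88), and scaling to the 75th percentile gave 0.08. No direction therefore holds for MAT2A over its probes and scalings. MAT2B, the regulatory partner of MAT2A, ranged from 9.43 to 9.89 in liver and from 10.42 to 11.12 in the mammary gland, with no overlap. It was lower in liver by -1.08 ± 0.08, or 2.11-fold (95% interval 1.87 to 2.38, adjusted p = 4.8e-10 by limma), in 12 of 12 cows. The other MAT2B probe was lower by -0.31 ± 0.05 only (adjusted p = 1.0e-05), so the call rests on 1 of its 2 probes, and the difference was 0.34 when each tissue was normalized on its own, which places the tissues on separate scales and moved the median over all probes to 0.38.

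S-adenosylhomocysteine, the product of every SAM-dependent methylation, is split by AHCY into adenosine and homocysteine. AHCY ranged from 15.57 to 16.11 in liver and from 11.23 to 11.90 in the mammary gland. The difference of 4.56 ± 0.06 was 23.5-fold (95% interval 21.4 to 25.8, adjusted p = 3.4e-22 by limma). The other AHCY probes gave 17.9-fold and 18.7-fold, so all 3 placed the liver higher.

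Both transsulfuration enzymes were higher in liver, with smaller differences. CBS, the cystathionine beta-synthase, ranged from 10.25 to 11.07 in liver and from 8.74 to 9.69 in the mammary gland, a difference of 2.98-fold (95% interval 2.59 to 3.44, adjusted p = 1.6e-11 by limma). CTH, the cystathionine gamma-lyase that releases cysteine, ranged from 8.33 to 8.76 in liver and from 6.57 to 7.15 in the mammary gland. Its difference was 3.42-fold (1.77 ± 0.07, adjusted p = 5.1e-15 by limma), and its other probe gave 3.65-fold. For both genes the lowest liver lay above the highest mammary gland, and liver was higher in 12 of 12 cows.

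Slides that held arrays of both tissues allowed the comparison within a slide. There were 4 such slides. On them, liver minus mammary gland ran from 7.20 to 8.78 for BHMT, from 6.69 to 7.52 for MAT1A, from 4.21 to 4.69 for AHCY, from 1.51 to 1.95 for CTH and from 1.36 to 1.85 for CBS. For MAT2B it ran from -1.33 to -0.89. For these 6 called genes the values of both tissues do not overlap over all arrays. Their sign within a slide was therefore fixed beforehand, and the slides show only the size of the difference.

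Neighbouring pathways gave the surroundings of these values. Of 51 genes listed, 42 had a probe, of which 23 were called higher in liver, 4 were called lower in liver and 15 were not called (median difference 1.37, against -0.03 over all probes). The 23 genes called higher were also called under the 3 other scalings, but of the 4 called lower, 2 were called under the 75th percentile, 3 with the scanner's processed signal and 0 where each tissue was normalized on its own, and DNMT1 (0.29) and MRI1 (0.49) changed sign in the last. Among the folate enzymes, 3 of 3 were higher in liver, with SHMT1, the cytosolic serine hydroxymethyltransferase, at 7.62 and MTHFD1 at 4.19. Of 8 genes of vitamin B12 handling, 5 were higher in liver, among them the mutase MMUT (2.93) and the chaperone MMACHC (2.78). The cell surface receptor CD320 differed by -0.68 and was not called, and by 1.14 where each tissue was normalized on its own.

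In the oxidation of betaine and choline, 2 of 3 genes with a probe were higher in liver, SARDH by 2.13 and PIPOX by at least 37.4-fold, PIPOX being well above background on 0 of 13 mammary arrays. Of 8 SAM-using methyltransferases, 4 were higher in liver, among them GAMT, the last enzyme of creatine synthesis, by 4.21, and 1 was lower, the maintenance DNA methyltransferase DNMT1, by -1.02. Of 9 genes of cysteine use, 5 were higher in liver, with the rhodanese TST at 4.72 and the dioxygenase CDO1 at 3.20, and the glutathione synthetase GSS was lower by -1.64. Of 7 genes of methionine salvage and polyamine synthesis, 2 were higher and 1, MRI1, was lower by -1.05. Of the 4 relatives of AHCY and enzymes of adenosine removal, 2 were higher, among them the adenosine kinase ADK (3.20), and AHCYL2 was lower by -1.98.

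**Figure D2:**
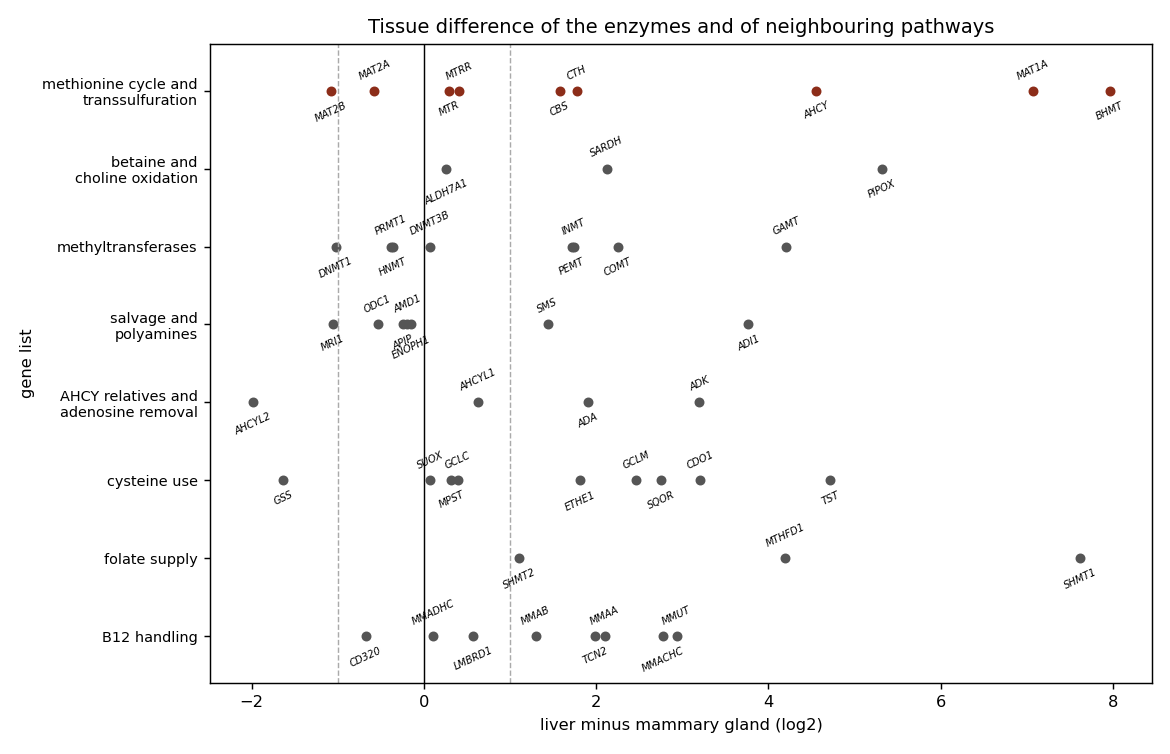
Liver minus mammary gland (log2) for the 9 enzymes (red) and for 42 genes of 7 neighbouring lists (grey), 1 probe per gene. Dashed lines mark 2-fold, and the points of PIPOX and INMT are measured differences although both were not well above background in any mammary gland. Points at the right of the plot are BHMT, SHMT1 and MAT1A, and most points of every list except methionine salvage and polyamines lie to the right of 0.

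For the vitamins, arrays were normalized together within a tissue and each vitamin group was set against the Ctl cows. No member gene was called in the liver in any of the 3 comparisons by limma (0 of 9 each), and the tool named in the study's methods, Cyber-T, also called 0 in each. The background by limma was 0% of all probes with B9, 0.00229% with B12 and 0% with B9_B12. The share of all probes called by Cyber-T is not given here. At an unadjusted p below 0.05, 0 of 16 probes passed with B9 (3.54% of all probes), 2 of 16 with B12 (2.12% of all probes) and 1 of 16 with B9_B12 (5.72% of all probes). The 3 comparisons share the control cows, and their values are therefore given side by side.

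**Figure D3:**
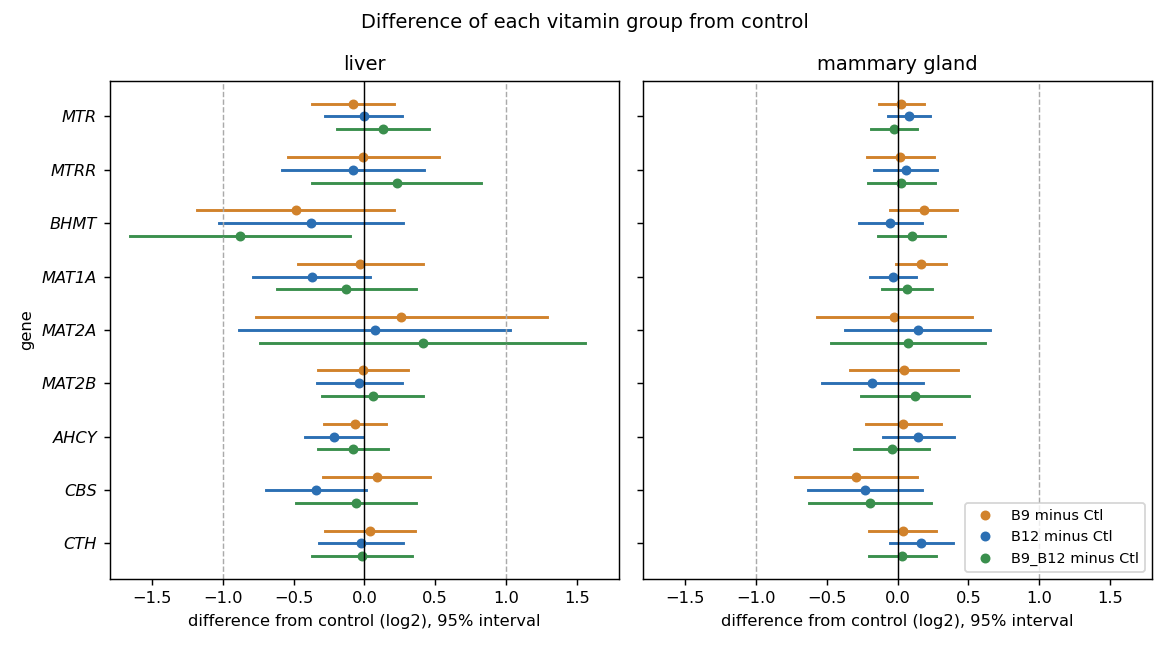
Difference of each vitamin group from control (log2) for 1 probe per gene, with 95% intervals from limma, in liver (left) and mammary gland (right). Dashed lines mark 2-fold. The intervals of BHMT with B9_B12 and of AHCY with B12, both in liver, lie wholly to one side of 0.

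BHMT had the lowest difference from control in each of the liver comparisons. Its signal was 15.34, 15.52 and 15.61 in the 3 Ctl cows. With B9 it was 14.54, 14.79 and 15.69, and with B12 it was 14.75, 14.90, 15.07 and 15.74. The 2 B9_B12 cows had 14.45 and 14.77. Of the 9 treated cows, 7 lay below the lowest control and 2 lay above the highest, cows 39 (B9) and 36 (B12). The difference was -0.48 ± 0.31 with B9 (SE, 95% interval -1.18 to 0.21) and -0.38 ± 0.29 with B12 (-1.03 to 0.27). With B9_B12 it was -0.88 ± 0.35 (-1.66 to -0.10, unadjusted p = 0.030, adjusted p = 0.69 by limma). An exact permutation test, two-sided, gave p = 0.10 for B9_B12, the smallest that 2 against 3 cows allow.

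Both B9_B12 cows were below all controls for BHMT, which was true of 1 of 9 member genes by the probe followed, in a comparison in which 21.8% of all probes were apart in one direction or the other. By probe, 3 of 16 were apart, all below control. The other 2 were the second MAT1A probe (13.69 and 13.83, against a lowest control of 13.84) and 1 of the other AHCY probes (15.05 and 15.10, against 15.14), while the followed probes of MAT1A and AHCY overlapped. On the slides that held a control and a treated liver, BHMT was lower than control by -0.77 with B12 and by -0.54 with B12 on the other such slide. It was lower by -0.55 with B9, and by -0.58 and -1.16 with B9_B12. Cows 39 and 36, which lay above all controls, were on slides without a control liver. The treated livers on the slides used were all below every control, so the sign within a slide was fixed beforehand. The B9 difference was -0.82 without cow 39 and -0.25 without cow 41. The B12 difference was -0.59 without cow 36 and -0.26 without cow 40. Without cows 57 and 32, whose livers stood apart, the B9_B12 difference was -0.71, and without the livers scanned on the second day it was -0.66. None of these differences passed the adjusted threshold. Markers of some other cells, but not of all those listed, were also higher in both B9_B12 livers than in the Ctl livers. The mean of the 3 endothelial markers was 9.78 and 10.21 against 9.47 to 9.66, that of the 3 plasma cell markers was 8.47 and 9.06 against 7.61 to 8.22, and that of the 4 T cell markers was 8.92 and 9.15 against 8.20 to 8.82. The mean of the 9 mammary epithelial markers was 8.59 and 8.79 against 8.15 to 8.27 with the liver arrays normalized on their own, and on that scale it was also above Ctl in all 3 B9 livers (8.32 to 9.47), as was that of the 5 muscle markers (6.87 to 7.00 against 6.82 to 6.83). The mean of the 10 hepatocyte markers was 17.48 and 17.62 against 17.51 to 17.57. With B9_B12 the macrophage, fibroblast, bile duct, adipocyte, red cell and muscle markers overlapped the Ctl livers. With B9 all lists but the mammary epithelial and muscle markers did so. The part of these markers in the BHMT result was not tested.

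AHCY was the member with the closest control values. The 3 Ctl livers all had 16.77 or 16.78, the B12 livers 16.38, 16.52, 16.60 and 16.74, and the B9 livers 16.63, 16.72 and 16.78. The B9_B12 livers had 16.57 and 16.82. All 4 B12 cows were below all 3 controls, which was true of 1 of 9 member genes, in a comparison in which 4.98% of all probes were apart in one direction or the other. The B12 difference was -0.22 ± 0.09 (95% interval -0.42 to -0.01, unadjusted p = 0.041, adjusted p = 1 by limma, exact permutation p = 0.057). The other AHCY probes gave -0.26 ± 0.17 and -0.27 ± 0.12 for B12, and the groups overlapped on both.

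Among the other members, MAT1A and CBS had intervals with B12 in the liver that only just reached 0. MAT1A was 14.03, 14.32, 14.39 and 14.70 with B12 against 14.52, 14.66 and 15.01 in Ctl, a difference of -0.37 ± 0.18 (95% interval -0.78 to 0.04). CBS was 11.00, 11.08, 11.33 and 11.59 with B12 against 11.41, 11.49 and 11.87 in Ctl, a difference of -0.34 ± 0.16 (-0.70 to 0.01). Both groups overlapped for either gene, and the adjusted p was 1 by limma. The mammary epithelial markers were highest in the livers of B12 cows 36 and 37. In all 4 B12 livers the mean of the 3 endothelial markers was below Ctl (9.28 to 9.42 against 9.47 to 9.66) and that of the 5 muscle markers was above it (6.84 to 7.11 against 6.82 to 6.83). All other marker lists, with the hepatocyte and mammary epithelial markers among them, overlapped between the B12 and the Ctl livers. The part of these markers in the B12 values of AHCY, MAT1A and CBS was not tested.

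MAT2A varied most between livers. Its residual SD of 0.62 was above that of 96.6% of all probes, and its highest liver was 3.93-fold its lowest. The signal was 14.38 in cow 57 (B9) and 14.13 in cow 38 (B9_B12), against 12.40 to 13.36 in the other 10 livers. The other MAT2A probe also had its highest values in these livers, 10.95 and 10.68, against 9.55 to 10.29 in the rest. Both high livers were on the slide of control cow 42, which lay between the other control cows on the probe followed and was the lowest of them on the other probe (9.67, against 9.80 and 9.93), and the liver of cow 57 is 1 of those that stood apart. The remaining cows that received B9 had 13.14 and 12.40 (B9) and 12.78 (B9_B12), so that both groups held high and low livers. The difference was 0.26 ± 0.46 with B9 and 0.41 ± 0.51 with B9_B12, and 1 cow decided the sign in each case. The B9 difference was -0.27 without cow 57, 0.71 without cow 41 and 0.95 when slides were fitted as fixed blocks. The B9_B12 difference was -0.27 without cow 38, 1.08 without cow 32, 1.07 without both livers that stood apart and 1.14 without the livers scanned on the second day.

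The remaining members had narrower ranges in the liver than MAT2A and BHMT. The difference from control of MTR, MTRR, MAT2B and CTH lay between -0.08 and 0.23 on the probe followed in the 3 comparisons. The 95% interval of MTR ran from -0.37 to 0.21 with B9, from -0.28 to 0.27 with B12 and from -0.20 to 0.46 with B9_B12. A change of 2-fold on this scale lies outside each. For MTRR the interval with B9_B12 reached 0.82, and its difference of 0.23 became -0.12 without cow 32 and 0.57 without cow 38. No liver group was apart from control with B9 for any of the 16 probes (8.45% of all probes).

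**Figure D4:**
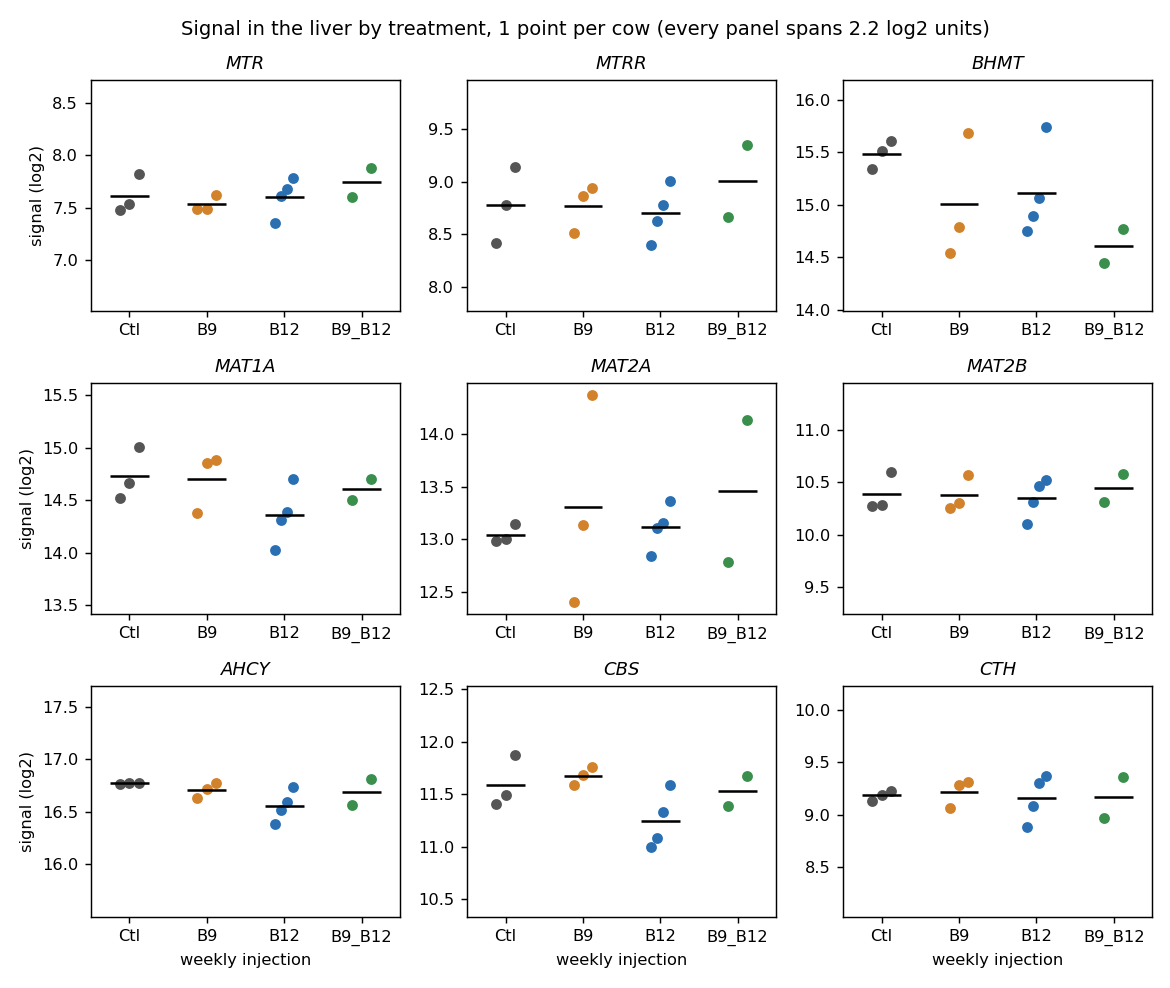
Liver signal (log2, liver arrays normalized together) of the 9 genes by treatment. Each point is a cow, each bar is a group mean, and every panel spans 2.2 units. BHMT has 7 of 9 treated cows below the 3 controls, and MAT2A has its high values in 1 B9 cow and 1 B9_B12 cow.

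In the mammary gland, no member gene was called by limma in the 3 comparisons (0 of 9 each, against 0% of all probes in each by limma). Cyber-T also called 0 of 9 in each, and its share over all probes is not given here. At an unadjusted p below 0.05 no member probe passed with B9, B12 or B9_B12 (0 of 16 each), and the share of all probes was 2.55%, 2.28% and 1.95%. The differences of the probes followed lay between -0.30 and 0.18 with B9, between -0.23 and 0.17 with B12 and between -0.20 and 0.12 with B9_B12. The 95% intervals of the 8 genes other than BHMT lay between -0.73 and 0.65 in all 3 comparisons. For MTRR, MAT2A, MAT2B, AHCY and CBS they were hence within 2-fold on this scale. For the dim probes of MAT1A, CTH and MTR no 2-fold limit is given. With the scanner's processed signal MAT1A with B9 was 0.49 in place of 0.17. CTH with B12 was then 0.51 in place of 0.17, and MTR with B12 was 0.25 in place of 0.08. BHMT was well above background on 0 of 3 Ctl, 2 of 3 B9, 0 of 4 B12 and 1 of 3 B9_B12 arrays, so neither a limit nor a direction is given for it. Its B9 difference of 0.18 ran from -0.12 under the 75th percentile to 1.58 with the scanner's processed signal. With B9 the 75th percentile moved the median over all probes to -0.21. None of the 9 genes was apart from control on the probe followed, and 1 of 16 probes, the other MAT2B probe, was above all controls with B9 (0.14 ± 0.09), against 6.99% of all probes with B9, 3.88% with B12 and 6.89% with B9_B12.

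CBS was the member with the lowest mammary differences. Its signal was 8.58, 8.59 and 9.04 in Ctl, and 8.36, 8.37 and 8.60 with B9. With B12 it was 8.18, 8.44, 8.65 and 8.77, and with B9_B12 it was 8.21, 8.54 and 8.88. The differences were -0.30 ± 0.20, -0.23 ± 0.18 and -0.20 ± 0.20, and control cow 43 was above all other mammary glands. Without control cow 43 they became -0.14, -0.08 and -0.04. The B9_B12 difference was -0.36 without cow 38 and -0.03 without cow 31, and within slides it went from -0.51 to 0.29.

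MAT2A was the most variable member in the mammary gland too, with a residual SD of 0.33, above that of 91.6% of all probes. It ranged from 11.44 (cow 32, B9_B12) to 12.44 (cow 38, B9_B12), so both extremes were in 1 group. The Ctl cows had 11.65, 12.02 and 12.11.

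Cows that received vitamin B9, alone or with B12, were also compared with those that did not. In the mammary gland, 2 of 9 genes had an unadjusted p below 0.05, BHMT and MAT1A (3.45% of all probes), with an adjusted p of 1.00 by limma for both. BHMT averaged 6.09 in the 6 cows given B9 and 5.92 in the other 7. It was well above background in 3 of the 6 and in 0 of the 7, and no fold is therefore given. Its highest mammary values, 6.44 in cow 57 and 6.16 in cow 31, were in the cows with the highest hepatocyte markers, whose part in the result was not tested. Without cow 57, the difference of B9 from control was 0.03 in place of 0.18. With all cows its sign turned under the 75th percentile, as did that of B9_B12 (0.10 to -0.16). Under that scaling the median over all probes moved to -0.21 with B9 and to -0.15 with B9_B12.

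MAT1A averaged 6.39 in the mammary glands of the 6 cows given B9 and 6.26 in the other 7, a difference of 0.13 ± 0.05 (exact permutation p = 0.025, two-sided). Its sign was not the same under all scalings. Against control, MAT1A differed by 0.17 with B9 and 0.07 with B9_B12, and by 0.49 and 0.24 with the scanner's processed signal. Under the 75th percentile it differed by -0.10 and -0.13. That scaling moved the median over all probes to -0.21 and -0.15, so the turn is not particular to MAT1A. Cows 57 and 31, with the highest hepatocyte markers, had 6.51 and 6.34, and cow 39 (B9) had the highest MAT1A, 6.55, with a hepatocyte marker mean of 8.08. The part of these markers in the MAT1A values was not tested. In the liver, 0 of 9 genes had an unadjusted p below 0.05 for B9 against none (9.43% of all probes), for B12 against none (2.88%) or for the interaction of both vitamins (4.05%). The mammary gland had 0 of 9 for B12 against none (1.58%) or for the interaction (3.16%).

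**Figure D5:**
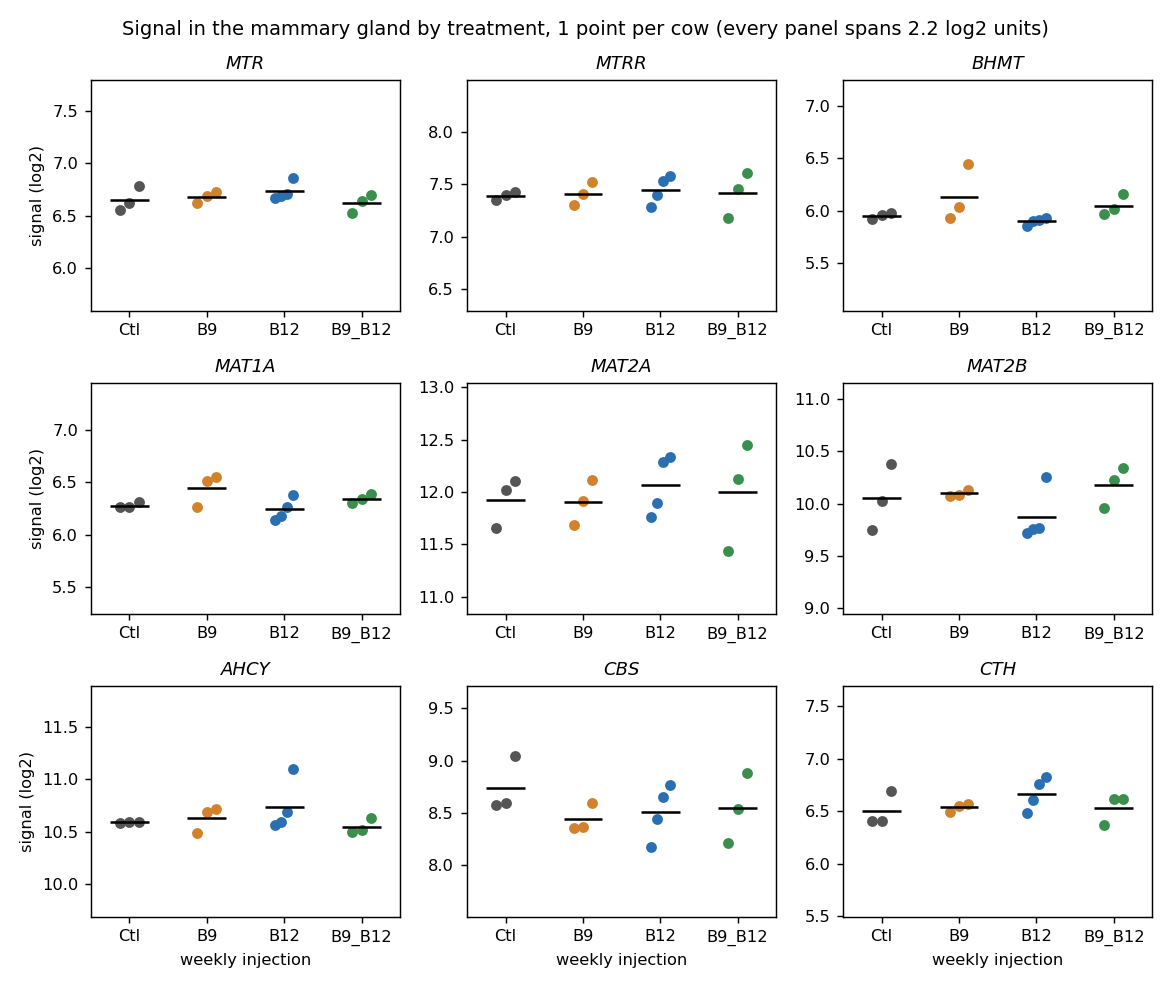
Mammary signal (log2, mammary arrays normalized together) of the 9 genes by treatment. Each point is a cow, each bar is a group mean, and every panel spans 2.2 units, as in the plot of the liver. Each vitamin group overlaps the controls for all 9 genes.

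Whether a vitamin acted differently in the tissues was tested by the difference of the effects. No member gene passed the adjusted threshold for B9, B12 or B9_B12. At an unadjusted p below 0.05, 1 of 16 probes passed for B12, that of AHCY (-0.42 ± 0.17, adjusted p = 1 by limma, against 1.82% of all probes). For B9_B12, 1 of 16 probes passed, that of BHMT (-1.05 ± 0.39, adjusted p = 0.84, against 4.25% of all probes). These tests used all arrays normalized together. With each tissue normalized on its own, both liver differences were below 0 and the mammary differences were 0.15 (AHCY) and 0.10 (BHMT). The mammary part of the BHMT value rests on a probe that was well above background on 0 of 3 Ctl and 1 of 3 B9_B12 arrays, and the value ran from -1.46 to -0.49 over the alternatives run.

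Of the 42 genes of neighbouring pathways, none was called with any vitamin in either tissue by limma. At an unadjusted p below 0.05, 0 genes were higher and 2 lower with B9 in the liver, 0 and 2 with B12, and 2 and 3 with B9_B12, beside 3.54%, 2.12% and 5.72% of all probes in either direction. In the mammary gland 1 gene was higher and 1 lower with B9, the same counts held with B12, and 0 were higher and 1 lower with B9_B12, beside 2.55%, 2.28% and 1.95% of all probes.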

How the data were processed

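Total RNA from biopsies was labelled with a single dye and hybridized to Agilent bovine arrays. The authors deposited scanner intensities of each spot and its local background (Agilent Feature Extraction 10.7.3.1 per the file headers, 9.1 per the labels), and a table of log2 values that the authors had background-corrected and normalized within each tissue. Scanner intensities were used here, because that table places the tissues on separate scales.

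Median intensities of 45220 spots were corrected with normexp (offset 50) in limma 3.58.1 (R 4.3.3), normalized by quantiles within a tissue for the vitamins and over all 25 arrays for the tissues, and put on the log2 scale. Outlier spots were left out (none on a member probe) and spots of a probe averaged, giving 43653 probes. No spot was saturated. All groups of a tissue, or of both, were fitted together by lmFit and eBayes, with Benjamini-Hochberg adjustment over all probes and a call at an adjusted p of 0.05 and 2-fold. Single differences also had an exact permutation test, two-sided. Where a probe was well above background on no array of a group, the fold is a lower bound against the lowest signal well above background on each array. The deposited log2 table, other corrections and scalings, slide and scan day, Cyber-T (window 101, confidence 10) and arrays left out were alternatives.

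Cow numbers pair the tissues, as both biopsies came from 1 animal. Deviations from the group means of both tissues of a cow correlated between -0.25 and 0.26 (median 0.04, above 0.1 in 4 of 12 cows). Per the study's methods, cows were allotted to blocks by their earlier milk yield and treatments were drawn within a block, but the labels do not give the block of a cow, and it was not used here. Named genes were the members and the gene lists of neighbouring pathways and cell markers, 1 probe each, the brightest over both tissues. Members and lists were chosen with earlier results of these data known, and 1 listed gene is not reported here. The fit was also run on simulated data with known changes. There an adjusted p of at most 0.05 was reached by 52% of 2-fold changes for B9_B12 in the liver. For B12 in the mammary gland it was 89%, and for the tissues 96%. The number of arrays limits the precision. Names came from RefSeq, which paired 11113 of 27886 array names. The marker lists not described with the results gave calls between the tissues as follows. Of macrophage markers 5 of 5 were higher in liver, and of bile duct markers 2 of 2, fibroblast markers 3 of 5, plasma cell markers 2 of 3, muscle markers 2 of 5 and T cell markers 1 of 4 were lower. Of 4 adipocyte markers 1 was higher and 1 lower, and of 3 endothelial and 4 red cell markers none was called.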

Additional observations from a re-analysis of the deposited data

Results flagged for a closer look

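In the B12 group of the mammary gland, MAT2B in cow 36 was 10.25 on the log2 scale, while the other 3 cows lay between 9.72 and 9.77. The gap was 0.909 of the range of the group, above the critical value of 0.829 for 4 samples. Such a gap was looked for in 18 groups of 4 (9 genes in 2 tissues) and found in 1, and chance alone gives about 1 in 20.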

How the results depend on the processing

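The count of 0 called members held in every vitamin comparison, in both tissues and in the test between tissues, under all alternatives run (25 to 29 per comparison). These covered other background corrections and scalings, the deposited log2 table, slide and scan day, Cyber-T, and leaving out each cow. The difference of BHMT with B9_B12 in the liver ran from -1.04 to -0.58. Of 1551 single vitamin values under an alternative, 1490 moved by less than 1 SD and 1432 kept their sign.

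Between the tissues, the 5 members called higher became 8 when each tissue was normalized by its own quantiles. The 1 member called lower became 0 under that setting, under scaling to the 75th percentile after normexp and where a gene's probes were averaged. MAT2B was then 0.34, -0.87 and -0.69, so it reversed in the first. The size of the others moved too. With the scanner's processed signal BHMT went from 7.96 to 11.93, MAT1A from 7.07 to 8.997 and CTH from 1.77 to 2.66 (1.41 under the 75th percentile). With each tissue normalized on its own, AHCY went from 4.56 to 6.06 and CBS from 1.58 to 2.95. Leaving out each cow in turn gave 5 to 5 higher and 1 to 1 lower, and the cow as a replicate block, random or fixed, gave 5 and 1. That block pairs the tissues only. Within a tissue each cow had 1 treatment, and the labels do not give the milk yield block of a cow, so the vitamin groups were not paired. The settings of scan day and of the livers that stood apart were chosen after seeing the data, as was the scaling of the neighbouring lists. Leaving out a B9_B12 liver leaves 1, assumed to vary like the other groups. Low signal over background limits what can be said of BHMT in the mammary gland, and 2 livers limit B9_B12.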

Other observations

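Among the neighbouring genes, MMAA, which handles vitamin B12 for the mitochondrial mutase, had an unadjusted p below 0.05 by limma in 5 of 6 vitamin comparisons, more than any other of the 42 genes. It was chosen after its values were seen, and the comparisons within a tissue share their control cows. In the liver it was 12.10, 12.37 and 12.37 in Ctl, 11.69, 11.73 and 11.74 with B9, 11.89, 11.89, 11.98 and 12.02 with B12, and 11.78 and 11.80 with B9_B12. All 9 treated livers were thus below all 3 controls on this probe, in comparisons in which 8.45% (B9), 4.98% (B12) and 21.8% (B9_B12) of all probes were apart in one direction or the other. On one of the other 2 probes B12 cow 52 (11.20) lay above control cow 51 (11.19), so 3 of 4 B12 livers were below all controls. The differences were -0.56 ± 0.08 with B9, -0.34 ± 0.07 with B12 and -0.49 ± 0.09 with B9_B12, with adjusted p-values of 0.91, 1 and 0.69. The other 2 MMAA probes gave -0.38 and -0.43 with B9, -0.22 and -0.33 with B12, and -0.33 and -0.43 with B9_B12. In the mammary gland the first probe gave -0.65 ± 0.12 with B9, -0.33 ± 0.11 with B12 and -0.15 ± 0.12 with B9_B12, where the groups overlapped. The other 2 probes gave -0.30 and -0.20 with B9, -0.11 and -0.19 with B12, and -0.10 and -0.06 with B9_B12. None of these differences reached 2-fold or passed the adjusted threshold.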
